A study of Homo sapiens with 6 samples.

Results

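The baseline transcriptome of REH cells was determined on the 3 arrays of the non-targeting control, out of 6 arrays in the series. REH is an established human B-cell precursor acute lymphoblastic leukemia (BCP-ALL) line with the fusion gene ETV6/RUNX1 that, according to the study, has lost the remaining ETV6 allele. Members were taken by their labels, with no measured value used, and these give the cell line as REH and the shRNA target as non-targeting. They are called control 1, control 2 and control 3 here, after the replicate number in the labels. These cells were not untouched. They had received a GFP-marked lentivirus with a short hairpin RNA (shRNA) that, per the study's methods, was directed at ETV6 but not at the fusion transcript, and GFP-positive cells were sorted before RNA was isolated. The other 3 arrays, with an shRNA against the fusion, served only in the calibration between arrays. The study calls its replicates biological, and the labels do not say whether separate cultures were used, so that the spread given below may be partly technical.

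B-cell precursors assemble their immunoglobulin genes by V(D)J recombination, which needs the RAG1 and RAG2 recombinase and is varied by the DNA polymerase DNTT. Transcription factors such as EBF1, TCF3 and PAX5 switch on the B lineage programme, and VPREB1 and IGLL1 form the surrogate light chain that pairs with a newly made heavy chain in the pre-B-cell receptor. Long non-coding RNAs (lncRNAs) are transcripts without a known protein product, many of which are found at low levels and in few cell types.

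Each array carried 57176 probes that were not controls. A total of 23042 came from a lncRNA design and 34134 from the Agilent catalogue, and the latter are called mRNA probes here. Median raw spot intensity was 66 on control 1, 68 on control 2 and 75 on control 3, whereas the 308 negative control spots had medians of 42.3, 44 and 48. Intensities were brought to a generalised log2 scale, on which 1 unit is close to a 2-fold difference for bright probes and less than that for dim ones. Such a value is called the level below, and negative controls had a median level of 4.75, 4.79 and 4.81. A probe is called detected where the scanner software flagged it as well above background on all 3 arrays. The level depends on how well a probe binds and labels as well as on the transcript, so that an order of levels is an order of probe brightness, and no amounts of different transcripts were compared.

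First, signal over background was determined. Of the mRNA probes, 20198 were detected (59.2%), whereas 4739 of the lncRNA probes were (20.6%). With a level over the negative control threshold on at least 2 arrays as the rule, these counts were 23197 and 7346. No array gave a flag for 66.3% of lncRNA probes and 31.8% of mRNA probes. On single arrays, the flag was given to 65.8%, 64.0% and 60.6% of mRNA probes on control 1, 2 and 3, and to 29.0%, 26.8% and 23.6% of lncRNA probes. Control 3 was lowest for both classes, and it alone lacked the flag for 932 lncRNA probes, against 33 for control 1 and 72 for control 2. The same flag was given to 6, 4 and 11 of the negative control spots on control 1, 2 and 3.

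By origin of the sequence, 66.0% of mRNA probes on a coding RefSeq accession were detected and 44.9% of those on a non-coding RefSeq accession. Within the lncRNA design, Ensembl transcripts and assembled TCONS transcripts gave close shares, 21.0% and 19.98%. A gene symbol was found for 19721 genes, and 12994 of these had a detected probe (65.9%), which is the share to hold beside the gene lists below. For protein-coding genes it was 67.7% of 18143. Of symbols annotated as lncRNA genes in RefSeq, 387 of 1027 (37.7%) had a detected probe.

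LncRNA probes were dimmer than mRNA probes on every array. The median level of lncRNA probes was 5.13, 5.14 and 5.16 on control 1, 2 and 3, and that of mRNA probes was 6.82, 6.76 and 6.78. The difference averaged -1.64 ± 0.034 (SD, n = 3) on the generalised log2 scale and had the same sign on all 3 arrays, and an exact sign-flip permutation test gave a two-sided p = 0.25, the smallest that 3 arrays allow. The size of this difference depended on the normalization, from -0.93 with normexp and quantile normalization to -4.16 with the processed signal minus its 75th percentile, and which step moved it was not tested. Among detected probes the difference was -2.24, -2.22 and -2.21 on the 3 arrays, with a mean of -2.22, and it ran from -1.92 to -2.56 over the other normalizations.

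Bright lncRNA probes were few. A mean level over 12 was reached by 130 lncRNA probes (0.564%) and by 3453 mRNA probes (10.1%), and a level over 14 by 40 and 1130 probes. Together the lncRNA probes took 4.11%, 3.71% and 3.73% of the intensity above negative controls on control 1, 2 and 3. Signal was also concentrated within the array. On control 1, 2 and 3, 50% of it came from 507, 513 and 529 probes, and the 100 brightest probes of each array held 19.9%, 19.8% and 19.4%.

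**Figure D1:**
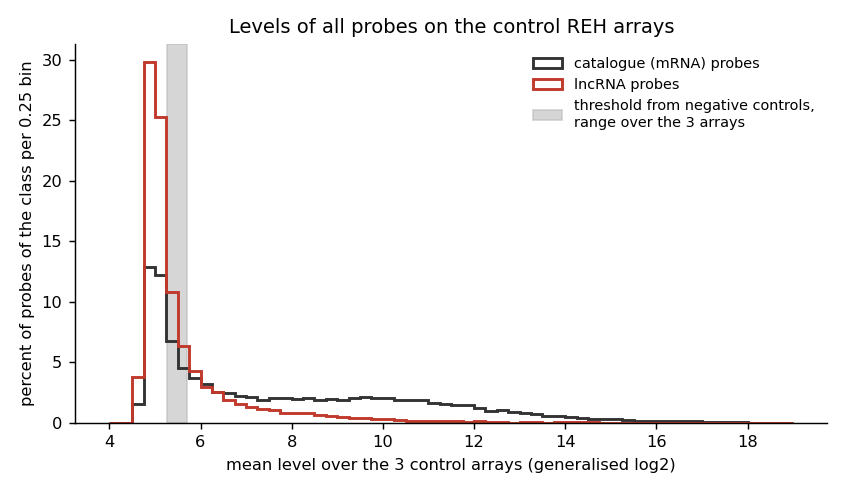
Distribution of the mean level over the 3 control arrays (generalised log2, horizontal axis) as the percent of probes of each class in bins of 0.25 (vertical axis). LncRNA probes pile up at background, below the grey band of negative control thresholds (5.27 to 5.70), whereas mRNA probes extend in a long shoulder to 18.5.

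Next, the brightest genes were listed. Among the 20 symbols with the highest level, 11 were cytosolic ribosomal protein genes. RPS2, a protein of the small ribosomal subunit, measured 18.46, 18.48 and 18.35 on control 1, 2 and 3, and RPL13 of the large subunit measured 18.35, 18.37 and 18.27. EEF1A1, which carries aminoacyl-tRNAs to the ribosome, reached 18.31, 18.34 and 18.24. The list also held RNA28SN5, a 28S ribosomal RNA gene, at 18.30 ± 0.023 (SD, n = 3), and the histone gene H4C3 at 17.96 ± 0.053. Over the 20 symbols the SD between arrays was at most 0.116.

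Outside these groups, 6 other genes were on that list, namely ZNF865, SLC66A1, GPR155, FUT6, CYP2W1 and FAM74A4. ZNF865, a zinc finger gene, was brightest of all at 18.50 ± 0.033, but its other probe measured 7.18. GPR155 measured 18.08 ± 0.040 on its brightest probe and 6.41 on its dimmest. For FUT6, a fucosyltransferase gene, 1 probe reached 17.99 ± 0.050 and the other, at 5.23, was not detected. SLC66A1, CYP2W1 and FAM74A4 had 1 probe each, at 18.21, 17.96 and 17.82, so that no second probe could be set beside it. Disagreement between probes of one gene was common on this array. Of 4984 symbols with several probes, 874 (17.5%) had detected and undetected ones, and where all were detected the median gap between the brightest and the dimmest probe was 1.88.

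Of the 10 brightest lncRNAs, 6 were TCONS transcripts and 4 Ensembl transcripts, all with an accession only and 1 probe each. TCONS_00007197 led with 17.29, 17.26 and 17.14 on control 1, 2 and 3, followed by ENST00000428643 with 16.66, 16.76 and 16.81 and TCONS_00006556 with 16.69, 16.63 and 16.60. After these came ENST00000400768 (mean level 16.36), TCONS_00000605 (16.34), TCONS_00000095 (16.32), TCONS_00007198 (16.06), TCONS_00019152 (15.81), ENST00000452197 (15.37) and ENST00000414075 (15.32). Their SD between arrays ran from 0.048 to 0.237. ENST00000452197 was highest on control 1, with 15.64 against 15.21 and 15.26.

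B-cell precursor markers were then set beside the labelled cell type. Their list was drawn up with earlier results of these data known and is thus no independent check. Of 30 genes, 28 were detected (93.3%, where 65.9% of all symbols were), and their median level was 12.75 against 8.01 for all symbols. CD79A, a signalling chain of the B-cell receptor, was brightest with 16.23, 15.93 and 16.19 on control 1, 2 and 3. The surrogate light chain gene IGLL1 measured 14.66, 15.02 and 14.93, and its relative VPREB3 14.75, 14.74 and 14.75. For none of these did the arrays differ by as much as 0.4.

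Genes of V(D)J recombination were bright as well. RAG1 measured 15.05, 15.18 and 14.97, RAG2 had a mean of 12.02 ± 0.105 (SD, n = 3), and DNTT 14.06, 14.05 and 14.07, which placed DNTT at the 96.3rd percentile of all symbols. Among B lineage factors, LEF1 had a level of 15.52 ± 0.12 (SD, n = 3), TCF3 of 14.65 ± 0.13, IKZF1 of 14.42 ± 0.23, the coactivator POU2AF1 of 14.26 ± 0.06 and EBF1 of 13.26 ± 0.07. PAX5, the factor that commits cells to the B lineage, was detected by its single probe but lay far below these, with 7.80, 7.35 and 7.36 on control 1, 2 and 3. This was the lowest level among the 28 detected markers and the 46.3rd percentile of all symbols.

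VPREB1, the second surrogate light chain gene and a defining marker of the stage, was not detected by either of its 2 probes. One probe measured 7.08, 4.93 and 4.33 on control 1, 2 and 3 and had the flag on control 1 alone. The other had a mean level of 4.94, close to the negative controls. Around the first probe, the 24 surrounding spots on control 1 were raised as well, by a median of 0.85 over the other arrays. CD34, a marker of earlier progenitors, measured 5.69, 5.72 and 5.56 and was not detected either. A low level can come from fewer cells with the transcript, from less RNA per cell or from a probe that binds poorly. Bulk arrays cannot tell these apart.

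**Figure D2:**
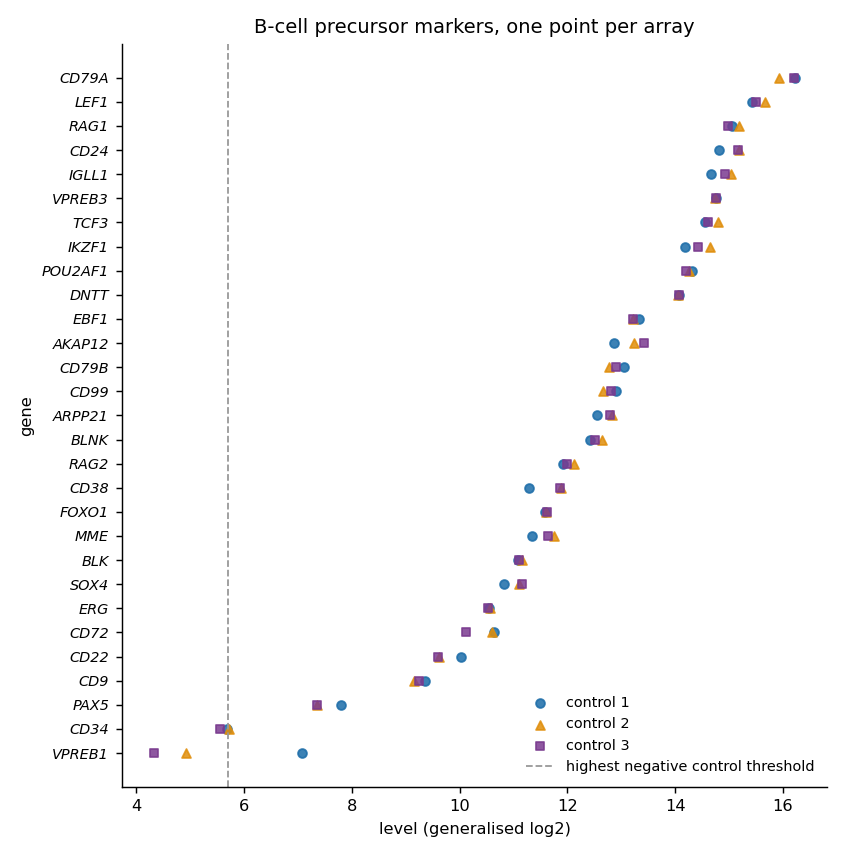
Level (generalised log2, horizontal axis) of 29 of the 30 B-cell precursor marker genes (vertical axis, ordered by mean), with 1 symbol per control array and the highest negative control threshold as a dashed line. The arrays lie close together from CD79A at 16.1 to PAX5 at 7.51, whereas VPREB1 is spread from 4.33 to 7.08.

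Promoter sequences were set beside these levels, since CG pairs (CpG) are dense in promoters of genes used in most tissues and rarer in many tissue-specific ones. The sequences come from RefSeq (GRCh38.p14) and run from 250 bases before to 50 bases after the annotated start, and 14573 protein-coding genes on the array were matched by symbol. A ratio of observed to expected CpG over 0.6 was found for 79.7% of the promoters of detected genes and for 40.01% of those of genes without a flag on any array. In bins of level, this share was 41.4% under level 6, 80.5% between 8 and 10 and 87.2% over 14. All 24 matched constitutive genes had such a promoter, and 11 of 26 matched B-cell precursor markers did (42.3%), a share near that of genes without a flag. A smaller part of other lists was matched, with 27 of 36 proliferation, 19 of 24 myeloid, 10 of 15 NK cell and 13 of 22 T cell genes against 26 of 30 B-cell precursor and 24 of 28 constitutive genes, and no share was read from these incomplete lists.

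Printed here are the promoters of 2 bright markers, of VPREB1, which was not detected, and of the replication gene PCNA for contrast, 5′ to 3′ on the strand of the gene with each CG pair in capitals. CD79A lies on the plus strand at chr19:41877029-41877328, DNTT on the plus strand at chr10:96304184-96304483, VPREB1 on the plus strand at chr22:22244536-22244835 and PCNA on the minus strand at chr20:5126573-5126872.
CD79A: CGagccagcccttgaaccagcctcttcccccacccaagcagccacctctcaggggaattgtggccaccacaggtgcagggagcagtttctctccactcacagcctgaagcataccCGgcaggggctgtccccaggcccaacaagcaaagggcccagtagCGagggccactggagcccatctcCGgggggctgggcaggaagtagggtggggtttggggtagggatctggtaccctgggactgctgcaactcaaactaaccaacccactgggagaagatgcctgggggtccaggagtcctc
DNTT: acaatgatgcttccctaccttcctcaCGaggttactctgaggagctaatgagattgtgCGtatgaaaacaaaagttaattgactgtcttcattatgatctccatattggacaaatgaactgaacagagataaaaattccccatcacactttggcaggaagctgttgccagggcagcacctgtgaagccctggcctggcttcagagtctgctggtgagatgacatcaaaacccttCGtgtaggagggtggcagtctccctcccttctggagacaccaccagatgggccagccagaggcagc
VPREB1: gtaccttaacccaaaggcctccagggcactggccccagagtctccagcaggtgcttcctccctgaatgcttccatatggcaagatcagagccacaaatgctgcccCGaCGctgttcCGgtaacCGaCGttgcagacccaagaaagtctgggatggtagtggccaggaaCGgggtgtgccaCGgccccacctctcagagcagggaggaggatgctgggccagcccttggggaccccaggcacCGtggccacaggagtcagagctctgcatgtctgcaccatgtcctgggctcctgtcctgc
PCNA: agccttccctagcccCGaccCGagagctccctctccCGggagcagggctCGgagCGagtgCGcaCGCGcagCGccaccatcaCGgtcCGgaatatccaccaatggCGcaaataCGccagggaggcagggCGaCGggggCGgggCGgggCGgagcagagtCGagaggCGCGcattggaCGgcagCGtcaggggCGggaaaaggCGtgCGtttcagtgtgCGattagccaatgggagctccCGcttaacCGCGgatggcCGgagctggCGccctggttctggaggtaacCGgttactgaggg
These windows hold 4, 3, 8 and 33 CpG, in that order. The letters CAGGTG, an E-box bound by TCF3 and related factors, were searched on both strands. They occur once in CD79A (181 bases before the start), once in DNTT (75 bases before) and once in VPREB1 (203 bases before), and not in PCNA. Of the 26 matched B-cell precursor markers 8 hold these letters, and 20.6% of all 27305 RefSeq promoters do. All 3 B-cell markers shown thus hold the letters, detected or not, and a match is a stretch of letters, not a bound site.

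Markers of other cell types were examined in the same way. Detected shares were 10 of 20 for mature B and plasma cells, 10 of 22 for T cells, 5 of 15 for NK cells, 8 of 22 for myeloid cells, 10 of 17 for erythroid cells, 4 of 14 for megakaryocytes and platelets, and 12 of 18 for stem and progenitor cells. All but the last lay below the 65.9% of all symbols. Outside the blood, 6 of 10 endothelial, 4 of 12 fibroblast, 5 of 12 epithelial, 5 of 16 hepatocyte, 5 of 16 neuronal and 4 of 16 muscle markers were detected.

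Within the B lineage, later markers were mostly dim. XBP1, a factor of secretory cells that many other cells express, measured 14.57, 14.24 and 14.20 on control 1, 2 and 3, and the repressor BCL6 measured 12.35, 12.42 and 12.30. MS4A1, which encodes the mature B-cell antigen CD20, was detected at 6.65, 6.45 and 6.54. The complement receptor CR2 at 4.92 ± 0.17 and the plasma cell receptor TNFRSF17 at 5.02 ± 0.11 had no flag on any array. SDC1, the plasma cell antigen CD138, was detected at 11.73, 12.36 and 12.20, with control 1 lowest.

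T cell genes split. CD4 measured 12.32, 12.22 and 12.26, the factor BCL11B 10.50, 10.48 and 10.44, and the adaptor LAT 10.46, 10.18 and 10.00. Signalling genes of T-cell receptor activation were dimmer but detected, with CD247 (CD3 zeta) at 9.16, 9.15 and 9.02, the kinase ZAP70 at 8.42, 8.23 and 8.43 and the kinase LCK at 8.67, 7.84 and 7.98. In contrast, CD3E and CD3G of the T-cell receptor complex and the early T cell antigen CD7 had no flag on any array, at mean levels of 5.33, 5.07 and 5.24. CD3D was detected at 6.85 ± 0.21. CD5 had a flag on control 3 alone (4.94, 5.14 and 7.78) and CD6 on control 1 alone (7.38, 5.48 and 5.14). Spots around CD6 on control 1 were raised by a median of 1.15, and those around CD5 on control 3 by over 1.

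Myeloid genes split likewise. MPO, the peroxidase of neutrophil granules, was detected at 13.95, 13.90 and 13.79, the granulocyte factor CEBPE at 12.67, 12.53 and 12.45, SPI1 (PU.1) at 10.94, 11.03 and 11.06, and the receptor CSF3R at 11.49, 10.77 and 10.74. Dimmer but detected were the monocyte and macrophage genes CSF1R (mean level 7.54), CD68 (7.31) and CD14 (7.30) and the integrin ITGAM (7.10). Some granule and myeloid genes had no flag on any array. Among them, ELANE had a level of 5.06 ± 0.08, S100A8 of 4.95 ± 0.32, S100A9 of 4.87 ± 0.25 and CEBPA of 4.91 ± 0.20. AZU1, with 7.02, 4.68 and 4.77, had its only high value on control 1, where the surrounding spots were raised by a median of 1.33.

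Among erythroid genes, the transferrin receptor TFRC measured 14.09, 14.60 and 14.58, a gene that dividing cells in general express, and EPOR, the erythropoietin receptor, 9.47, 9.15 and 9.44. Beta-globin (HBB, 5.08 ± 0.05) and GATA1 (5.07 ± 0.16) had no flag on any array. Of platelet genes, GP1BB was bright with 12.51, 12.58 and 12.69, and PPBP and ITGB3 were at 4.95 and 4.80. Progenitor genes included LMO2 (13.29, 12.77 and 12.59), the receptor FLT3 (11.65, 11.97 and 11.85), HOXA10 (11.42, 11.06 and 11.08, with its other probe at 4.94) and HOXA9 (10.30, 10.16 and 9.98), whereas MEIS1 (4.98 ± 0.36), HLF and TAL1 had no flag on any array. CKM, the muscle creatine kinase, stood out in the muscle list with 13.06, 13.27 and 13.12, while the myosin heavy chain genes MYH1, MYH2, MYH6 and MYH7, at 4.86 to 5.36 had no flag on any array.

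**Figure D3:**
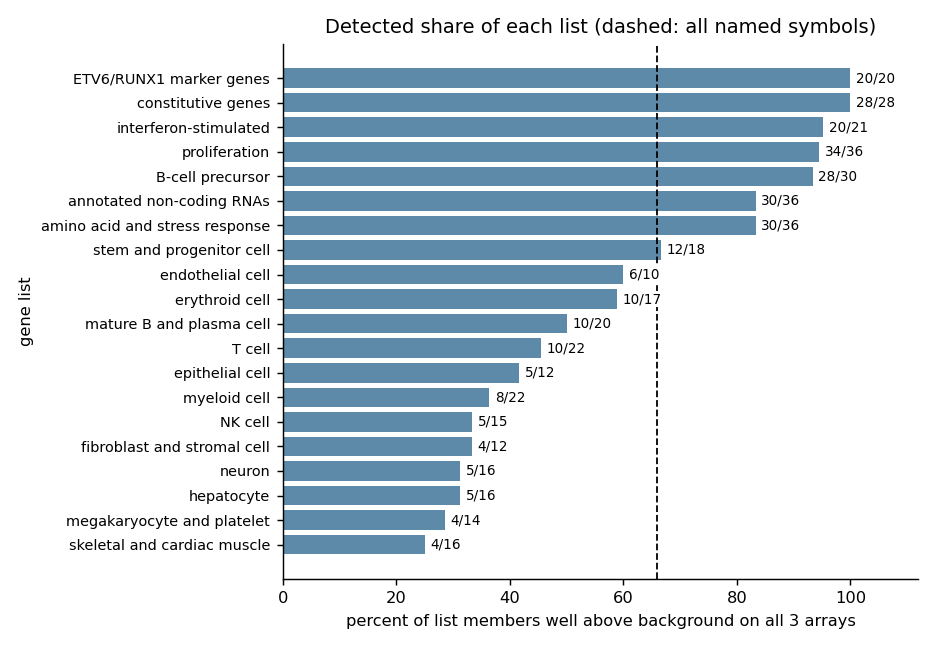
Percent of members with a probe well above background on all 3 control arrays (horizontal axis) for each of 20 gene lists (vertical axis), with detected and measured members printed at the bar and the 65.9% of all named symbols as a dashed line. B-cell precursor, proliferation, interferon and constitutive lists lie above the line and most lists of other cell types lie below it.

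All 20 genes of a list of reported ETV6/RUNX1 leukemia markers were detected, where 65.9% of all symbols were. Some of them, AK7, PTPRK and GBA3 included, were named by the study from profiles of REH cells, so that this count is no independent sign of their expression. The phosphoinositide kinase gene PIK3C3 was brightest (14.87, 14.76 and 14.73), followed by the fetal RNA-binding protein IGF2BP1 (14.36, 14.18 and 14.16), the phosphatase PTPRK (13.72, 13.51 and 13.74) and RUNX1 (13.47, 13.35 and 13.24). ETV6 was detected by 1 of its 2 probes, with 7.84, 7.98 and 8.30, and the other measured 5.05. Where these probes lie relative to the fusion was not analysed here. BIRC7, an inhibitor of apoptosis, had the widest spread of the list with 11.40, 11.01 and 10.68.

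Of the 16 lncRNAs that the study tied to ETV6/RUNX1 in patients and cell lines, 14 had a detected probe, and 24 of their 32 probes were detected, where 20.6% of all lncRNA probes were. These lncRNAs were partly chosen by the study for their expression in REH, so that the count is no independent sign of it. lnc-FARS2-1 was brightest with 12.97, 13.03 and 12.98 on control 1, 2 and 3, which is the 99.6th percentile of lncRNA probes. lnc-LRP8-3 measured 12.17, 11.21 and 11.50, the widest spread of any detected probe of this set, and lnc-LSM11-4 11.35, 11.71 and 11.71.

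The 4 lncRNAs that the study went on to silence were all detected. The study chose them partly by their change on this array platform after fusion knockdown in REH. Their detection and rank are thus no independent result. lnc-RTN4R-1 measured 11.56, 11.39 and 11.46, and the brighter probe of lnc-ASTN1-1 10.94, 10.80 and 10.97, against a mean of 9.11 for its other probe. The 5 probes of lnc-TIMM21-5 had means from 9.10 to 9.66, and the 2 probes of lnc-NKX2-3-1 had means of 9.32 and 9.34. All of these probes lay at or above the 96.7th percentile of lncRNA probes. lnc-SARDH-1 (5.95, 5.59 and 5.91) had the flag on 1 array, and lnc-TINAGL1-1 (mean levels 5.52 and 4.86) on none. For lnc-POTEG-4, 1 probe was detected at 8.39 ± 0.17 and the other 2 lay at background.

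Of a list of well-known non-coding RNAs, 36 had a probe and 30 of these were detected, with a median level of 10.61. Over all symbols annotated as lncRNA genes the share was 37.7% and the median level 5.34. GAS5, the host of several small nucleolar RNAs, measured 16.10, 15.73 and 15.62, RN7SK, a regulator of transcription elongation, 15.80, 15.41 and 15.35, and the host gene SNHG29 15.58, 15.34 and 15.44. Of 15 SNHG host genes 14 were detected, with a median level of 12.64, whereas 93 of 358 genes with a LINC symbol were (26.0%). TERC, the RNA of telomerase, measured 11.86, 11.40 and 11.10. HOTAIR (4.73 ± 0.06), UCA1, H19, CYTOR, MIR100HG and CDKN2B-AS1 had no flag on any array.

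Genes of growth and division were nearly all detected, where 65.9% of all symbols were. Of 36 proliferation genes 34 were, led by the replication helicase subunit MCM7 (16.30, 16.64 and 16.60) and the thymidylate synthase TYMS (15.54, 15.86 and 15.74). MYC measured 14.25, 14.16 and 14.22, and CCND3 was the brightest of the D-type cyclins (13.40, 13.77 and 13.51), beside CCND2 (9.98, 9.25 and 8.88) and CCND1, which was not detected (5.63 ± 0.09). The cell cycle inhibitor CDKN2B (4.91 ± 0.20) had no flag on any array, and CDKN2A was detected by 1 of its 2 probes (9.90, 10.01 and 9.85, the other at 4.99). All 28 constitutive genes were detected, from TBP at 10.06 ± 0.18 to EEF1A1.

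Gene families gave a broader view, with the 65.9% of all symbols detected as the share to hold beside them. All 84 symbols of cytosolic ribosomal proteins (median level 17.08), all 77 of mitochondrial ones (12.62) and all 36 of complex I (13.92) were detected, as were 46 of 48 proteasome genes and 416 of 488 genes with a ZNF symbol. MHC class II genes, which B cells use to present antigen, were detected in 16 of 17 cases, led by HLA-DPA1 at 16.53. Of interferon-stimulated genes 20 of 21 were detected, with ISG15 highest (13.49, 13.72 and 13.56). Families of other tissues had lower shares, with 41 of 365 olfactory receptors (11.2%), 6 of 31 beta-defensins (19.4%), 15 of 54 keratins (27.8%), 10 of 28 taste receptors (35.7%) and 32 of 84 keratin-associated proteins (38.1%), of which KRTAP2-4 reached a mean level of 12.05. Of HOX genes 11 of 38 were detected, 8 of the 11 in the HOXA cluster. Among interleukin and interleukin receptor symbols 11 of 45 were, led by the lymphoid growth receptor IL7R at 14.46.

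Agreement between the arrays was determined from the SD over the 3 levels of each probe. For detected probes the median SD was 0.117 for mRNA and 0.138 for lncRNA probes. For mRNA probes it was 0.140 between levels 6 and 7 and 0.083 at 14 and over, whereas the 40 lncRNA probes at 14 and over had 0.159. A total of 692 detected mRNA probes were printed in 4 to 15 spots, and single spots of one probe within an array had a median SD of 0.135. The averages of these spots had a median SD of 0.0987 between the arrays. Averages vary less than single spots, so that these 2 values cannot be ranked. Control 2 and 3 were the closest pair, with a median absolute difference of 0.0971 over detected mRNA probes, against 0.147 between control 1 and 2 and 0.171 between control 1 and 3.

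**Figure D4:**
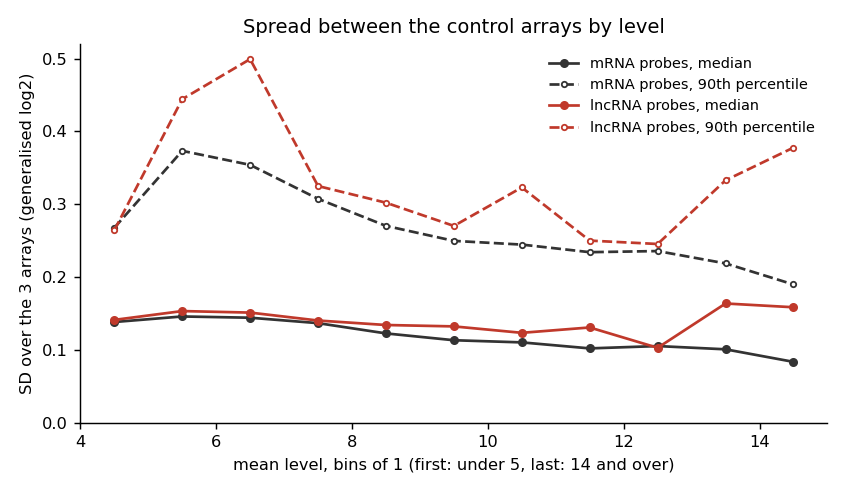
SD over the 3 control arrays (generalised log2, vertical axis) of all probes in bins of mean level (horizontal axis), as the median (solid) and the 90th percentile (dashed) of mRNA and lncRNA probes. Median SD stays near 0.15 or below at every level up to 13, and the 90th percentile peaks at 0.499 for lncRNA probes between levels 6 and 7.

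Next, probes were counted in which 1 array stood apart. Control 1 lay over 1 away from the mean of the other arrays for 231 of 24925 detected probes, and was the higher one in 186. With the processed signal minus its 75th percentile this count was 425. Control 2 did so for 83 probes and control 3 for 183. Of mRNA probes these were 175, 53 and 115 on control 1, 2 and 3, whereas of lncRNA probes they were 56, 30 and 68, so that control 3 had most for lncRNAs. The widest ranges among detected probes were high values on 1 array. SLC25A26, a mitochondrial carrier gene, measured 17.52, 6.77 and 6.83 on its single probe, ERCC6 7.34, 7.16 and 11.27, and PLGLB1 6.58, 6.53 and 10.57. The others of the 10 symbols with the widest range were MAOA, RBM33, BTBD8, PPIP5K1, PALM2AKAP2, ITPK1 and SLC13A3.

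The surroundings of these spots on the array were then measured. For 9 of the 10 symbols, the 24 surrounding spots on the high array were also raised, by a median over 0.5, which held for 0.824% of single-spot probes on control 1 and 0.947% on control 3. Around MAOA on control 3 this median was 2.75, and around RBM33 on control 1 it was 3.42. SLC25A26 was the exception, with a median of 0.05. The 5 lncRNAs with the widest range were all of this kind: lnc-ZNF146-1, with 7.14, 7.33 and 11.33, had neighbours raised by 2.52 on control 3. Across all single-spot probes, 229 were over 2 above both other arrays on control 1 alone while those 2 agreed within 0.5, 22 on control 2 and 210 on control 3. Raised neighbours were found for 164, 7 and 96 of them, and their part in these values was not tested. Only 1 probe was low on a single array by the same rule.

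A different pattern was found for amino acid and stress response genes, a list drawn up with earlier results of these data known and thus no independent evidence. Of 36 genes 30 were detected, where 65.9% of all symbols were. Of the 30, 27 were highest on control 1, where 41.5% of all detected symbols were. TRIB3, a pseudokinase induced by the factor ATF4, measured 15.28, 12.16 and 12.43 on control 1, 2 and 3, the asparagine synthetase ASNS 14.59, 12.37 and 12.25, and GPT2, an alanine aminotransferase, 9.20, 6.02 and 5.97. Control 2 and 3 agreed within 0.3 for these 3 genes, and control 1 lay over 2 above both. In all, 21 of the 30 were over 1 higher on control 1 than the mean of the others, where 0.708% of all detected symbols were.

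The glutathione-degrading enzyme CHAC1 (12.58, 9.78 and 9.86) and the glycine transporter SLC6A9 (10.84, 7.80 and 7.96) showed the same order, and ATF4 itself differed less (17.23, 16.24 and 16.41). SLC38A2, VLDLR and PYCR1 were not highest on control 1. Of the 30 probes, PCK2 alone had neighbours raised by over 0.5 on control 1 (1.02), and the next highest median was 0.13. The ALDH18A1 spot on control 3 had an outlier flag and was left out, so that this gene (11.03 and 11.51 on control 1 and 2) was not counted as detected.

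**Figure D5:**
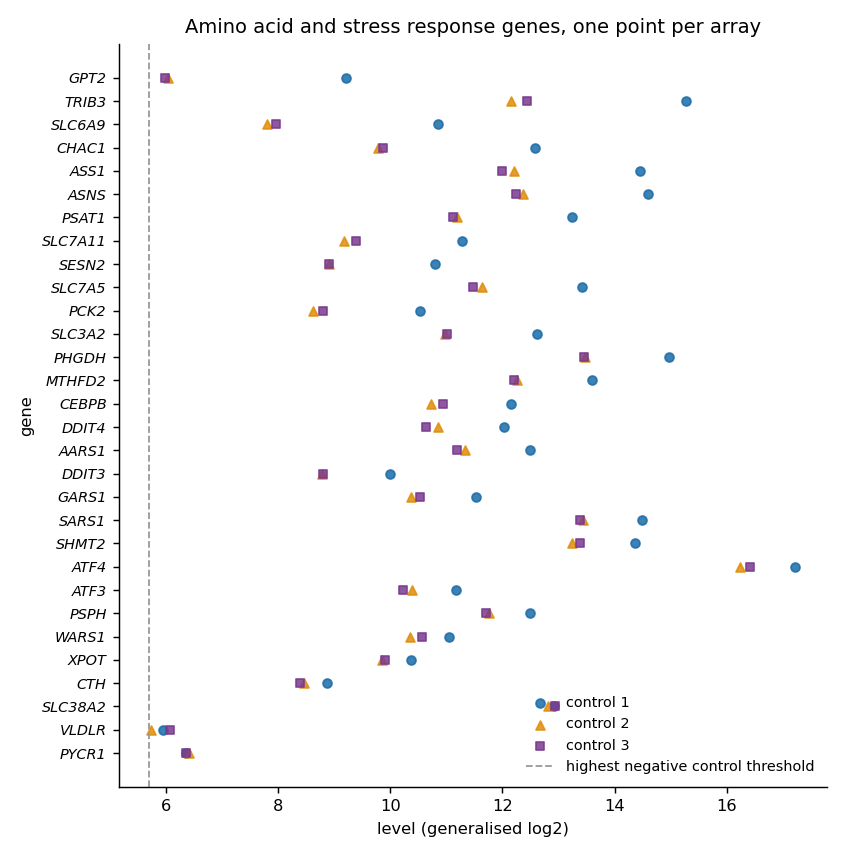
Level (generalised log2, horizontal axis) of the 30 detected amino acid and stress response genes (vertical axis, ordered by control 1 minus the mean of the others), with 1 symbol per control array. Control 1 lies to the right of the other arrays for 27 genes, by 3.20 for GPT2, and not for SLC38A2, VLDLR and PYCR1.

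Other lists did not separate control 1 in this way. None of the 28 B-cell precursor markers differed by over 1 between an array and the mean of the others, and 11 were highest on control 1, 13 on control 2 and 4 on control 3, where 41.5%, 26.7% and 31.8% of all detected symbols were. Proliferation genes were highest on control 3 in 19 of 34 cases and on control 1 in 5, where 31.8% of all detected symbols were highest on control 3, with a median difference of -0.21 for control 1. Reported ETV6/RUNX1 markers were highest on control 1 in 14 of 20 cases, with a median difference of 0.18 beside a median SD of 0.173.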

How the data were processed

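RNA of 3 control and 3 knockdown samples was labelled with Cy3 and hybridized to 6 one-colour Agilent arrays on 1 slide, scanned together. Per the file headers, Feature Extraction 10.7.1.1 gave a median raw intensity, a local background, a processed intensity and flags for each spot. The deposited log2 values were made by the authors with background subtraction, variance stabilization and a filter on negative controls, and hold 27869 of the probes.

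Raw median intensities of all 6 arrays were calibrated together by variance stabilizing normalization, fitted with numpy 2.4.6 and scipy 1.17.1 and tested on simulated data. Across probes, the correlation with the deposited log2 values was 0.999 on control 1. Spots with an outlier flag (128 to 174 per control array) were dropped, and the remaining spots of each probe were averaged. Saturation flags were absent. A probe left out on an array counted as not flagged there. RefSeq symbols were found for 75.4% of mRNA probes, and 1100 lncRNA probes were named from the study's lists. A symbol is described by its brightest probe. The text names list members, the 20 brightest symbols and 10 brightest lncRNAs, and the 10 symbols and 5 lncRNAs of widest range, without genes of the Y chromosome and XIST. Samples were taken by label. The choice to describe the control samples, the gene lists and the rules were made with earlier results of these data known. Normalization by limma 3.58.1 (normexp and quantile), the processed signal minus its 75th percentile, other detection rules and leaving out each array were tried. Precision is limited by the number of arrays. Values of some list members are not reported here, although the list counts include them.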

Additional observations from a re-analysis of the deposited data

How the results depend on the processing

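Of 66 alternative values, 53 stayed within the spread between arrays or, for counts, overlaps and the median SD, within 1.5 times. This bound is wide for the overlaps. For the lncRNA minus mRNA difference, 9 values moved, and the 3 that stayed were those without 1 array. The lncRNA minus mRNA difference kept its sign throughout. It was -4.16 with the processed signal minus its 75th percentile and -0.93 with normexp and quantile normalization. Stabilization on the control arrays alone gave -1.48. The deposited values gave -2.51, over only the filtered 6038 lncRNA and 21831 mRNA probes that they hold. With the main normalization over detected probes, the difference was -2.22. Over detected probes, these normalizations gave -2.56, -1.92, -2.17 and -2.33 in the same order, which were added after seeing the data. Leaving out 1 array gave -1.65 to -1.62. The 4739 detected lncRNA probes became 7346 with a level over the negative control threshold on at least 2 arrays, and 4772 to 5671 without 1 array. The mRNA count without 1 array was 20231 to 21388, and that of B-cell precursor markers 28 to 29. The median SD over all probes, 0.135, was 0.369 with the processed signal and 0.0792 with normexp, and 0.0940 to 0.121 without 1 array. Of the brightest 20 symbols 19 were shared without any 1 array, and of the brightest 10 lncRNAs 9 to 10. Also added after seeing the data, probes over 1 apart on control 1 numbered 425 with the processed signal and 155 without probes among raised neighbours, against 231. Stress genes highest on control 1 were 27 of 30 under each normalization. No paired analysis was possible because no comparison between groups was made. Few arrays and dim lncRNA signal limit what can be called undetected.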
